A study of Homo sapiens with 9 samples.

Results

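Long non-coding RNAs with a LINC name, the systematic symbol for transcripts from between protein-coding genes that had no better name, were followed in HEK293 cells expressing 3 forms of MEK1. A probe was a member if the array's annotation, in any of the scanner files, gave it a name of LINC followed by digits. This found 1095 of the 50598 probes and 476 of the 38551 RNA or gene names on the array. The cells were HEK293, a human embryonic kidney cell line, stably expressing HA-tagged MEK1 WT (WT cells), MEK1 F53S (F53S cells) or MEK1 K57N (K57N cells), with RNA taken at steady state and 3 arrays per line. F53S is a mutation of RASopathies, developmental disorders of the RAS pathway, and K57N is a mutation of cancers. All 3 lines carried a transfected MEK1 plasmid and were selected with puromycin, all kept their own MEK1 gene, and each mutation was 1 stable line, so that the mutation and other differences between lines cannot be told apart. The arrays come from 3 independent experiments according to the methods. The p-values of the main fit measure the spread between the arrays of each line. This spread includes shifts that the lines of an experiment share, because the main fit does not pair arrays.

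MEK1 is the kinase that activates ERK, and ERK raises the expression and activity of transcription factors, among them the FOS and JUN proteins that form AP-1 and bind the letters TGACTCA. LINC-named RNAs are transcribed and processed like messenger RNAs but mostly code for no protein. Many are scarce and restricted to few tissues, and some lie beside a developmental gene and rise and fall with it. Others that were named LINC have since been found to encode a small protein. By the RefSeq table, 438 of the 476 RNAs are lncRNAs, 28 are now protein-coding genes, 5 are transcribed pseudogenes and 5 were not matched. A total of 89 carry another symbol today, such as NORAD (LINC00657), which binds Pumilio proteins, CYTOR (LINC00152) and SMIM26 (LINC00493), which encodes a small mitochondrial protein.

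An array probe reads 60 bases of an RNA, and 260 of the 476 RNAs had 2 or more probes, up to 23. Probes of LINC00659 are shown first because this RNA moved furthest between lines and because 1 of its probes was above background in K57N cells alone. All lie on the minus strand of chromosome 20, and capitals mark the 40 bases that 2 of the probes share. Those at chr20:61405788-61405847 and chr20:61405768-61405827 (hg19) overlap and thus read nearly the same stretch. The third, at chr20:61405561-61405620, gave the highest mean signal and represents the RNA. The last, at chr20:61405432-61405491, lies furthest along the direction of transcription and is the dim probe; the array ties it to predicted transcript models only, while the other 5 carry a curated RefSeq accession.
LINC00659 A_21_P0009821: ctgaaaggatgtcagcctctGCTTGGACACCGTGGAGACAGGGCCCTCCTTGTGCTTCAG
LINC00659 A_19_P00315651: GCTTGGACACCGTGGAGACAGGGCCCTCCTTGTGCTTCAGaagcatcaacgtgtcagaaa
LINC00659 A_19_P00801649: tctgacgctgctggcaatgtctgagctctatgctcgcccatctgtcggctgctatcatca
LINC00659 A_21_P0010070: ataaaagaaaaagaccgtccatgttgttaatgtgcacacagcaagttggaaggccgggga

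The 3 probes of LINC00941 are shown because the one with the highest signal did not follow the other two. They lie on the plus strand of chromosome 12 at chr12:30954787-30954846, chr12:30955134-30955193 and, for the discordant probe, chr12:30955519-30955578 (hg19). Capitals in the discordant probe mark 8 bases, GAGCCACC, that belong to the consensus of Alu, a repeat present throughout the genome and in many transcripts. These 8 letters occurred in 56 of the 50598 probes (0.111%), 3 of them LINC probes.
LINC00941 A_21_P0007829: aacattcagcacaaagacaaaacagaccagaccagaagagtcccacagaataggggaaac
LINC00941 A_21_P0007484: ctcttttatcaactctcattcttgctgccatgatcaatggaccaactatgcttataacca
LINC00941 A_33_P3518572: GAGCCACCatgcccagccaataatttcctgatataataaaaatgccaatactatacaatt

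Levels are log2 processed signals relative to the 75th percentile of the same array, so that 0 is the signal at this percentile. Slide 1 held replicate 1 of each line and slide 2 held replicates 2 and 3. The 75th percentile was between 245.0 and 376.2 on slide 1 and between 695.0 and 821.0 on slide 2, and probes well above background numbered 23724 to 26125 and 27150 to 29349. The slides differed more for LINC-named RNAs than for all genes. Slide 1 held 1 experiment, and the slide and that experiment cannot be told apart. Over the 183 LINC-named RNAs that were tested, the median of the slide 1 mean less the slide 2 mean was 0.69, beside 0.26 over all 19208 genes tested, and 37.2% of these RNAs differed by more than 2-fold between slides, beside 17.4% of all genes. Values from the fit with slide as a term are therefore given beside calls that depend on it. MAP2K1, the gene of MEK1, had a mean level of 2.37 ± 0.04 (SD, n = 3) in WT cells, 2.45 ± 0.06 in F53S cells and 2.85 ± 0.06 in K57N cells. Its log2 fold change of K57N over WT cells was 0.475. No difference passed the test without a slide term (limma adjusted p = 0.135 or higher), and a value with the term is not given here. Whether the probe also reads the transfected MEK1 was not tested. Of 7 markers of HEK293 cells, 6 were well above background on all 9 arrays and NEFM on 6 arrays. Of 8 markers of blood, liver, endothelium and fibroblasts found on the array, ALB and DCN were above background on no array, CD3E and PECAM1 were above it on 7 and 2 arrays, and PTPRC, APOA1, VWF and COL1A1 on all 9. The part of other cells in the values was not tested.

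The LINC-named RNAs that were well above background were largely shared by the 3 lines. An RNA was counted as detected in a line when at least 1 of its probes was well above background on all 3 arrays. This held for 166 RNAs in WT cells (34.9% of 476), 167 in F53S cells (35.1%) and 170 in K57N cells (35.7%). Over all names on the array the shares were 46.5%, 46.3% and 48.1%. The count depends on the rule: by the scanner's more lenient test for a positive and significant signal, 267, 269 and 269 RNAs were detected. For 153 RNAs (32.1%, beside 44.3% of all names) the criterion was met in every line, 155 RNAs had no probe above background on any array, and a further 138 appeared on some arrays without filling a line. By probe, 25.1% of LINC probes were above background on all 9 arrays, beside 43.7% of all probes, and 43.4% on none, beside 30.9%. Of the 28 RNAs that RefSeq now lists as protein-coding, 39.3% had a probe above background on all 9 arrays, and of the lncRNAs 31.5%, a difference that was not tested.

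On single arrays, between 28.9% and 33.6% of LINC probes were well above background on slide 1 and between 36.6% and 41.8% on slide 2. Messenger RNA probes ran from 66.7% to 76.9%, antisense and host-gene RNAs from 45.2% to 61.1%, and lncRNAs known only by a catalogue number up to 24.4%. LINC probes lay above catalogue lncRNAs and below the other classes on every array. Slide 1 gave the lowest share of each line in all 4 classes. Within slides the K57N arrays lay at the edge, with the highest share of LINC probes on slide 1 (33.6%, beside 29.1% and 28.9%) and the lowest on slide 2 (36.6% and 37.6%, beside 38.6% to 41.8%).

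Detection patterns that differed between lines involved few RNAs. Those that met the criterion in K57N cells alone numbered 8 (1.68%, beside 2.11% of all names), among them LINC00261 and LINC00520. WT cells alone and F53S cells alone had 4 each (0.84%, beside 0.568% and 0.438%). LINC00460, LINC00624 and 3 others met it in F53S and K57N cells but not in WT cells (1.05%, beside 0.789%), while LINC00858, LINC00950 and 3 others met it in WT and F53S cells but not in K57N cells (1.05%, beside 0.708%). The strictest pattern, above background on all 3 arrays of 1 line and on none of the other 6, was met by a single probe, the dim probe of LINC00659 shown above, in K57N cells. The share of all probes that met this pattern is not given here, and nothing is read from the count.

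Comparison of K57N cells with WT cells asked which RNAs changed with the cancer mutation. LINC00659, LINC00261, LINC00460 and LINC00673 rose and LINC00858 and LINC00910 fell, so that 4 of the 183 RNAs tested were called higher (2.19%) and 2 lower (1.09%). To be called, an RNA had to change by over 2-fold with a limma adjusted p under 0.05. Of all 19208 genes tested, 1.53% were called higher and 0.734% lower, so that the LINC-named RNAs were called about as often as other genes. When the fit held a term for the slide, 5 RNAs were called higher and 3 lower, beside 2.58% and 1.97% of all genes. LINC-named RNAs lay low in K57N cells as a group, with a median log2 fold change of -0.14 and 29.5% above 0, while all genes had a median of -0.06 and 43.0% above 0. They were not compared with genes of equally low signal, and the part of dimness and scaling in this shift was not tested. The shift is a description, since the RNAs share arrays. The median standard error of 1 RNA was 0.40, and 0.17 with a slide term.

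LINC00659, an RNA studied in colon cancer, showed the furthest rise. Its representative probe read -0.92, -1.80 and -1.71 on the WT arrays, -0.15, -1.18 and -1.22 on the F53S arrays, and 5.01, 4.29 and 4.20 on the K57N arrays. WT and F53S values overlapped and all 3 K57N values lay far above both. The log2 fold change was 5.98 (SE 0.38; limma adjusted p = 0.000283), a 62.9-fold difference. On slide 1 the difference was 5.92 and on slide 2 it was 6.001.

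LINC00261 is transcribed beside FOXA2, a gene of endoderm development. Its tested probe read -5.98, -7.58 and -7.17 in WT cells, all below the limit for well above background, and -5.94, -5.25 and -4.97 in F53S cells, of which 1 was above it. In K57N cells it read -3.15, -2.94 and -2.85, all above the limit. Against WT cells the rise was thus at least 3.39-fold (limma adjusted p = 0.00251), a bound taken from the lowest signal called above background on each WT array or the probe's own value where that was higher. A second probe of LINC00261, about 3 kb away, was above background on none of the 9 arrays, so that 1 probe carries this result. That probe was tested through the K57N arrays alone, and the call ended with normexp, another background correction (fitted log2 value 1.02; adjusted p = 0.348).

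LINC00460, an RNA raised in several tumour types, was read by 3 probes. The representative probe gave -4.20, -3.91 and -3.87 in WT cells, -3.54, -2.96 and -3.12 in F53S cells, and -1.46, -1.33 and -1.17 in K57N cells. On this probe, above background on 2 of 3 WT arrays, the lines did not overlap and F53S cells lay between the others. The log2 fold change of K57N cells over WT cells was 2.67 (SE 0.20; limma adjusted p = 0.000528). The other probes gave 2.73 (SE 0.28) and 2.41 (SE 0.38), so that all 3 tested probes were called. The other probes were tested through the K57N arrays alone and were each above background on 1 of 3 WT arrays, so that these are fitted values. Without a slide term, LINC00460 was the only RNA with several tested probes of which all were called. With the term, all tested probes of LINC00673 (3) and LINC00624 (2) were called too.

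LINC00673, an RNA studied in pancreatic cancer, gave 0.09, -0.76 and -0.72 in WT cells, 0.58, -0.15 and -0.18 in F53S cells, and 2.02, 1.26 and 1.39 in K57N cells. The slide 1 array was the highest of each line, and K57N values lay above all others. The log2 fold change was 2.02 (SE 0.33; limma adjusted p = 0.0173), and a slide term brought the standard error to 0.08 (adjusted p = 1.15e-05). Its other probes gave 2.17 (adjusted p = 0.0133) and 1.52 (adjusted p = 0.0613). Leaving out WT replicate 2 or 3 or any one of the K57N arrays ended the call, with adjusted p between 0.0522 and 0.0854 and log2 fold changes from 1.79 to 2.17. So did testing without the filter on dim probes (0.0827).

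Both RNAs that fell were dim. LINC00858 read -2.55, -2.72 and -3.01 in WT cells and -4.15, -4.41 and -3.74 in K57N cells, where 2 of 3 arrays were above background, and fell by 1.34 on the log2 scale (SE 0.24; limma adjusted p = 0.0248). LINC00910 read -2.35, -2.92 and -2.71 in WT cells and -3.91, -4.00 and -3.98 in K57N cells. It fell by 1.30 (SE 0.23; adjusted p = 0.0236). In both, the K57N values lay below all WT and F53S values. A second probe of LINC00858 and 3 more of LINC00910 were above background in no full line and were not tested. A second tested probe of LINC00910 changed by -0.68 (SE 0.43) and did not pass. The LINC00858 call was lost without any one WT array, F53S replicate 3, or K57N replicate 1 or 2 (adjusted p 0.0543 to 0.11), and the LINC00910 call without any one WT or K57N array or F53S replicate 2 (0.0507 to 0.105). Both calls also ended with normexp (0.418 and 0.535) and without the filter (0.139 and 0.138), that of LINC00858 with a fit of 2 lines (0.053), and that of LINC00910 with the mean of its probes (0.14).

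**Figure D1:**
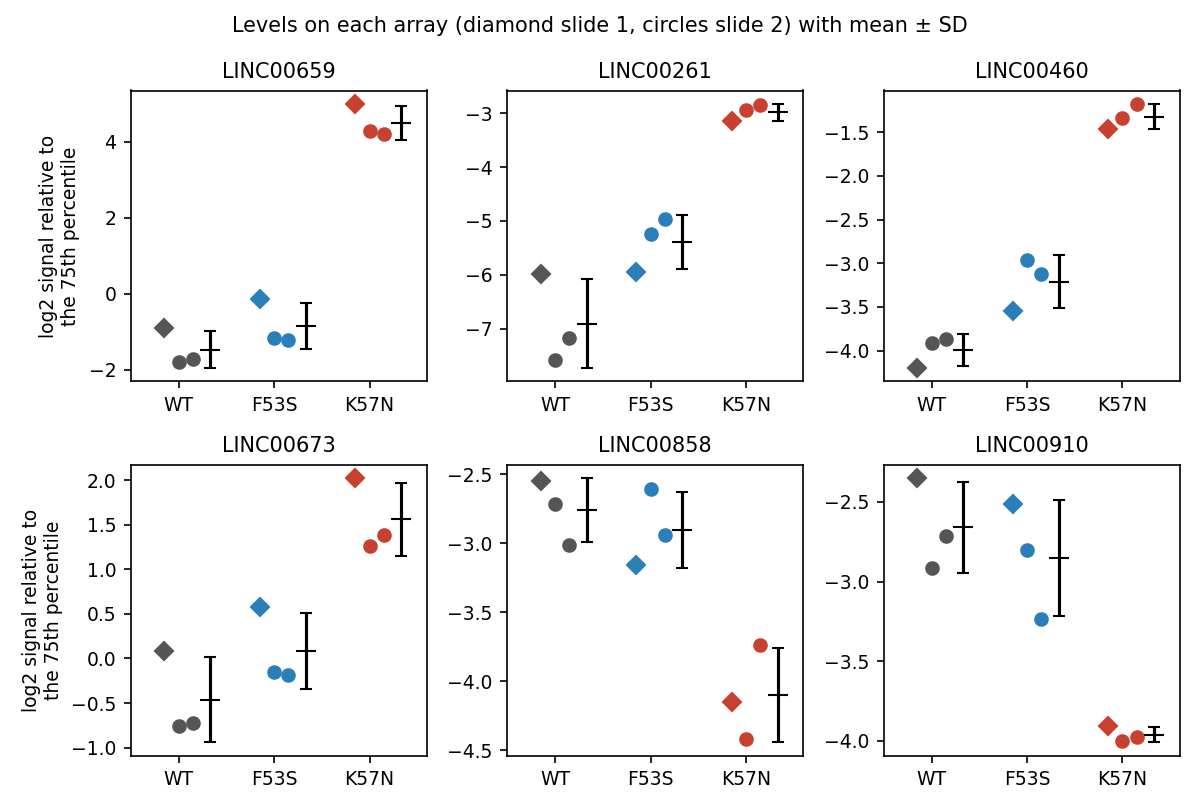
Level on each array (log2 signal relative to the array's 75th percentile, vertical axis, scaled separately in each panel) of the 6 LINC-named RNAs called between K57N and WT cells, by line (horizontal axis). Diamonds are slide 1, circles slide 2, and bars the mean ± SD of 3 arrays; K57N values do not overlap WT values in any panel, and the WT values of LINC00261 were not well above background.

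Slide as a term added LINC00624 to the RNAs called higher and LINC00649 to those called lower. LINC00624 read -3.63, -2.48 and -2.57 in WT cells and -1.84, -1.30 and -1.34 in K57N cells. It changed by 1.40 on the log2 scale (adjusted p = 0.0614 without and 0.00225 with the slide, limma). Its second probe gave 1.42 (0.0557 and 0.000421). Neither probe of LINC00624 was above background on all 3 WT arrays, so that both are fitted values. LINC00649 read -0.67, -1.83 and -1.71 in WT cells and -2.36, -2.72 and -2.81 in K57N cells. It changed by -1.22 on the log2 scale (0.189 and 0.00253). In both RNAs the WT value of slide 1 lay apart from those of slide 2.

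No LINC-named RNA was called between F53S and WT cells. None of the 183 passed in limma in either direction, with or without the slide, and 0.0% of all 19208 genes were called in either direction. With an unadjusted p below 0.05 in place of the adjusted one, 1 RNA was over 2-fold higher and none lower, and the same counts over all genes were 40 and 6. The median log2 fold change of the RNAs was 0.00, and 49.7% lay above 0. The RNA that passed the unadjusted rule was LINC00261, named after its value was seen, at a fitted 1.52 on the log2 scale (SE 0.41; adjusted p = 1.0), with 0 of 3 WT and 1 of 3 F53S arrays above background.

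By their representative probes, the F53S means of the RNAs that rose in K57N cells lay between those of WT and K57N cells. The F53S change was 10.5% of the K57N change on the log2 scale for LINC00659 (0.63, SE 0.38), 29.4% for LINC00460 (0.79, SE 0.20) and 27.0% for LINC00673 (0.55, SE 0.33). In each of these the F53S array lay above the WT array of the same replicate number in 3 of 3 pairs. For LINC00624, called higher only with a slide term, the F53S change was 27.0% of the K57N change, in 2 of 3 pairs. Not every probe gave this order. The 5 curated probes of LINC00659 changed by 0.48 to 0.82 in F53S cells and the fitted value of the dim one was -0.81, with no WT or F53S array above background. Those of LINC00460 changed by 0.79, 1.13 and -0.55, the last with no F53S array above background. The 3 probes of LINC00673 changed by 0.49 to 0.58. None of these differences passed the test, with adjusted p = 1.0 in limma, and both comparisons use the same WT arrays.

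Comparison of K57N with F53S cells set the mutants against each other. LINC00659, LINC00460 and LINC00261 were higher, with log2 fold changes of 5.35 (SE 0.38; limma adjusted p = 0.00109), 1.89 (SE 0.20; 0.00462) and 2.41 (SE 0.41; 0.035). For LINC00261 only 1 of 3 F53S arrays was above background, so that 2.41 is a fitted value and not a measured fold. LINC00950 was lower, at a fitted -1.05 (SE 0.17; 0.0293), on a probe that was not above background on all 3 K57N arrays. This made 3 of 183 RNAs higher and 1 lower, beside 0.968% and 0.25% of all genes. With the slide as a term the counts were 6 and 4, beside 1.9% and 1.11% of all genes, and the 6 added RNAs were LINC00520, LINC00624, LINC00673, LINC00649, LINC00858 and LINC00910. Leaving out WT replicate 3, or any one F53S or K57N array, ended the LINC00261 call (adjusted p 0.0724 to 0.153), as did testing without the filter (0.146, and 0.0633 with a slide term) and normexp (0.958). Normexp also ended the LINC00460 call (0.254). The LINC00950 call was lost on leaving out any single array but WT replicate 1 (0.0565 to 0.134), with normexp (0.937), without the filter (0.227), with a fit of 2 lines (0.0965) and on slide 2, where the change was under 2-fold (-0.88).

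LINC00950 is now part of TMEM8B, a protein-coding gene of a membrane protein. A second probe was above background on none of the 9 arrays. The tested probe read -3.45, -3.74 and -3.51 in WT cells, -3.19, -3.37 and -3.57 in F53S cells, and -4.58, -4.35 and -4.33 in K57N cells. The K57N values lay below the other 6 and were not all above background. The array also carries 2 probes under the name TMEM8B, which changed between K57N and F53S cells by -0.90 (SE 0.38; adjusted p = 0.469) and -0.44 (SE 0.23; 0.641) and were not called.

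LINC00520 shows how 1 array can decide a call. It read -5.93, -7.64 and -2.80 in WT cells, -5.89, -6.10 and -6.59 in F53S cells, and -0.77, -2.39 and -2.43 in K57N cells. WT replicate 3 lay close to the K57N values, and it was the only array of WT and F53S cells on which the probe was above background. Against F53S cells the level in K57N cells was at least 7.52-fold higher, with a limma adjusted p of 0.134 without and 0.0417 with the slide. The probe was tested through the K57N arrays alone, and with the slide but no filter the adjusted p was 0.163. Against WT cells the adjusted p was 0.155, and it was 0.0196 without WT replicate 3, when neither WT array that remained was above background.

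Probes of 1 RNA mostly lay within 2-fold of each other between K57N and WT cells, and mostly shared a direction where a probe moved. Of the 183 tested RNAs, 65 had 2 or more tested probes, 235 in all. Between K57N and WT cells the tested probes shared a sign in 44 of the 65 RNAs (67.7%) and lay within 2-fold of each other in 60, with a median range of 0.32 on the log2 scale. In the 10 RNAs with a probe beyond 2-fold, 9 had all probes on 1 side of 0, and 4, LINC00659, LINC00941, LINC00630 and LINC00908, had probes more than 2-fold apart. Probes of an RNA differed more in signal than in change, with a median range of 1.997 in mean level. Between F53S and WT cells, where no RNA was called, 29 of 65 shared a sign and the median range was 0.28. Of the 3 RNAs with a probe beyond 2-fold there, LINC00941 had all probes on 1 side of 0, and LINC00460 and LINC00909 did not.

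Of the 8 RNAs whose fitted probe values differed most, LINC00659 had a range of 4.82, which rests on its dim probe. Its 5 probes with a curated accession rose by 5.28 to 6.21 and each was called, while the dim probe, at a fitted 1.39 (SE 0.74; limma adjusted p = 0.517), has no measured fold. On the K57N arrays that probe was above background on 3 of 3, at -3.10, -4.90 and -4.85, and on none of the WT and F53S arrays. The rise over WT cells was at least 1.37-fold, and how far above this bound it lies was not measured.

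LINC00941 had a range of 2.997. Its representative probe, the one that holds Alu letters, read 1.40, 0.36 and 0.41 in WT cells and 1.39, 0.63 and 0.75 in K57N cells, and changed by 0.20 on the log2 scale (SE 0.41; limma adjusted p = 0.971). The probe at chr12:30954787-30954846 read -3.43, -3.46 and -3.29 in WT cells, -2.21, -2.53 and -2.65 in F53S cells, and -0.52, -0.75 and -0.73 in K57N cells. Its 3 lines did not overlap, and it rose by 2.73 (SE 0.17; 0.000283). The third probe rose by 3.20 (SE 0.42; 0.00694). By the rule that takes the probe with the highest signal, LINC00941 was not among the RNAs called, although 2 of its 3 probes were. Of the 56 probes with these 8 letters, 69.6% were above background on all 9 arrays, beside 43.7% of all probes; their part in the flat reading was not tested.

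**Figure D2:**
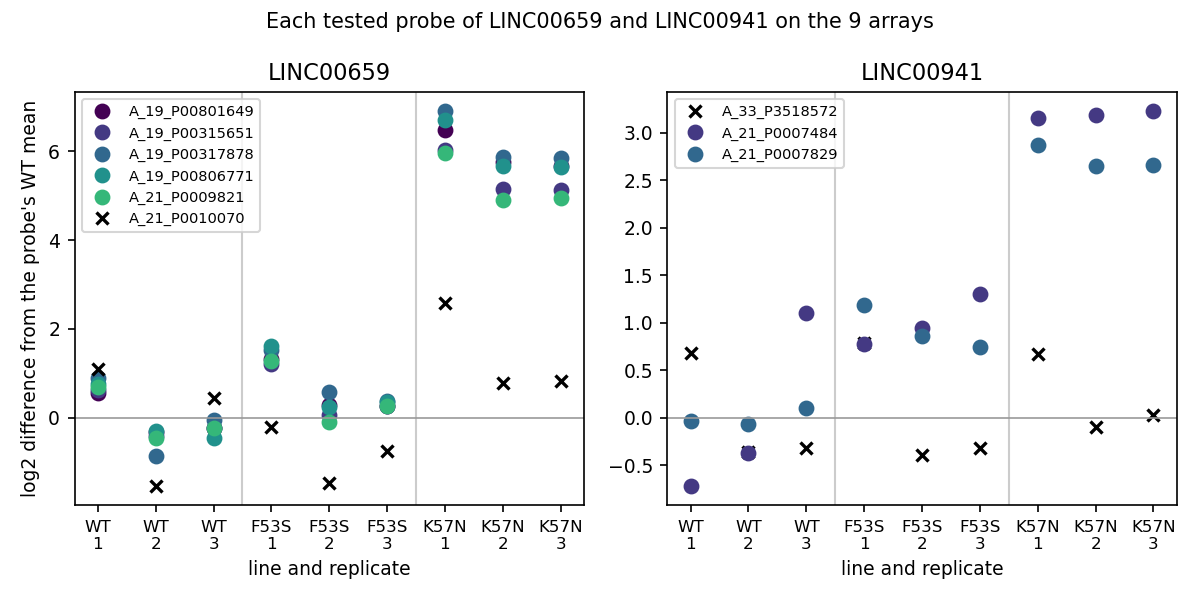
Level of each tested probe of LINC00659 (left) and LINC00941 (right) on the 9 arrays, as the log2 difference from that probe's own WT mean (vertical axis), by line and replicate (horizontal axis). Circles are the probes that were called and crosses the probe of each RNA that was not; in LINC00659 it was above background on no WT or F53S array, so that its crosses there show no measured level, and in LINC00941 it changed by 0.20.

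LINC00630, on chromosome X, had 13 tested probes with log2 fold changes from -0.49 to 1.42, on both sides of 0, and none was called. In LINC00908 a probe changed by -0.10 and another, above background on all 3 WT arrays and on no K57N array, was at least 1.56-fold lower in K57N cells (limma adjusted p = 0.0636). LINC00909 ran from -0.47 to 0.69, LINC00087 from -1.03 to -0.06, LINC00472 from -1.09 to -0.16 and LINC00240 from -0.53 to 0.32, with no probe called in any of them. A slide term called 1 probe each of LINC00908 (the one above background on no K57N array; adjusted p = 0.0157), LINC00087 (-1.03; 0.00662) and LINC00472 (-1.09; 0.0146). The reverse case was LINC00963, whose 19 tested probes were all lower in K57N cells, by 0.09 to 0.90 with a median log2 fold change of -0.64. None of the 19 passed in limma without the slide and 17 had an adjusted p below 0.05 with it, all of them short of 2-fold. Its representative probe was the one with the smallest change, -0.09, and 8 of the 19 share 30 or more bases with array probes of another name.

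A list of 23 LINC-named RNAs of known interest, drawn up with earlier results of these data known, was read for its level. On the array 21 were found and 16 were tested, of which 3 rose in K57N cells over WT cells (LINC00659, LINC00261 and LINC00460) and none fell, beside 1.53% and 0.734% of all genes. Nothing is read from this share. The list's median log2 fold change was 0.12, and 11 of the 13 RNAs not called lay within 0.5 of 0. These are values of the representative probe, which for LINC00941 and LINC00963 differed from the other probes as given above. Among the 11 were NORAD at -0.09 (SE 0.19), CYTOR at -0.17 (SE 0.17) and SMIM26 at -0.05 (SE 0.14). CYTOR has a nearly identical copy, MIR4435-2HG, from which its probe may not be told apart. Of the 5 that were not tested, LINC00473, a target of the cAMP-responsive factor CREB, was above background on no WT or F53S array, and its probes were above it on 2 and 1 of the 3 K57N arrays. LINC00116, which encodes the mitochondrial peptide mitoregulin, and LINC00948, which encodes the muscle peptide myoregulin, were above background on no array. LINC00511 and LINC00961 passed on 1 and 3 arrays.

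Neighboring genes were compared because some lncRNAs move with the gene beside them. For each of the 7 called RNAs, the tested gene with the nearest probe on the same chromosome was read. For LINC00950, now part of TMEM8B, this was HRCT1, 41.5 kb away, and TMEM8B itself was not counted as a neighbor. In K57N against WT cells, 3 of the 7 neighbors were called higher and none lower, beside 1.53% and 0.734% of all genes. A slide term made this 3 higher and 1 lower. All 3 that were higher lay beside an RNA that rose.

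NTSR1, the neurotensin receptor, lay 11.8 kb from LINC00659. It read -4.26, -4.72 and -3.91 in WT cells, -3.05, -3.92 and -3.97 in F53S cells, and -0.10, -0.77 and -0.65 in K57N cells, and rose by 3.79 (SE 0.33; limma adjusted p = 0.000839). FOXA2, 20.8 kb from LINC00261, read -0.35, -1.81 and -1.46 in WT cells, 0.70, -0.56 and -0.64 in F53S cells, and 1.98, 1.74 and 1.83 in K57N cells, and rose by 3.06 (SE 0.45; 0.0109). EFNB2, an ephrin ligand and the nearest tested gene to LINC00460 at 113.0 kb, read 0.81, 1.25 and 1.26 in WT cells, 0.88, 1.33 and 1.44 in F53S cells, and 2.52, 2.13 and 2.18 in K57N cells, and rose by 1.17 (SE 0.22; 0.0318). For all 3, every K57N value lay above every WT and F53S value, and NTSR1 was above background on 2 of 3 WT arrays. The neighbors of LINC00673, LINC00858 and LINC00910 changed by less than 0.1 on the log2 scale, at -0.07 (SE 0.53), -0.05 (SE 0.31) and 0.04 (SE 0.29). HRCT1, beside LINC00950, changed by -1.28 (SE 0.32; 0.0918), and with a slide term it was called lower (0.00816). In K57N against F53S cells NTSR1 was called higher, at 3.14 (limma adjusted p = 0.00429), while FOXA2 at 2.02 (0.0924) and EFNB2 at 1.06 (0.0713) passed only with a slide term (0.00269 and 0.0114), as did HRCT1 at -1.10 (0.219 and 0.0205).

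Promoter sequences were read for motifs of factors downstream of ERK, searched on both strands: AP-1 (TGACTCA), ETS (CCGGAAG), CRE (TGACGTCA), EGR1 (GCGTGGGCG) and the CArG box. None of the first 4 strings holds another. The RefSeq table (GRCh38.p14) gives 300 bases per start site, 250 before and 50 after it, and held windows for 348 of the 476 RNAs. LINC00460 and CYTOR are shown because both hold AP-1 letters at 2 positions close to the start site while their levels went differently. Capitals mark AP-1 letters on either strand. The LINC00460 window is chr13:106376314-106376613, plus strand, with the 2 matches beginning 44 and 17 bases before the start. The CYTOR window is chr2:87455177-87455476, plus strand, with matches beginning 19 and 9 bases before it.
LINC00460 promoter: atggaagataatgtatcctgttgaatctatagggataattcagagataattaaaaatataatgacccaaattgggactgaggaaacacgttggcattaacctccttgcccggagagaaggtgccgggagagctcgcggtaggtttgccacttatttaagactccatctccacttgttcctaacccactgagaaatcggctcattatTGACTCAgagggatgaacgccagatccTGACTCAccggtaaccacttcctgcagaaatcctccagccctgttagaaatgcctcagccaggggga
CYTOR (LINC00152) promoter: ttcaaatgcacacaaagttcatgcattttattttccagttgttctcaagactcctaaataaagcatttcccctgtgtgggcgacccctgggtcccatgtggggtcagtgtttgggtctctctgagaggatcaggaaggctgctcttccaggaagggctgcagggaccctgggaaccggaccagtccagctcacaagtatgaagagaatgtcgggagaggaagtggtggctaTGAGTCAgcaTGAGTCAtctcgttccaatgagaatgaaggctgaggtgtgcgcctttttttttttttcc

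AP-1 letters were found in 4.95% of all 35116 windows and in 8.95% of the 391 windows of LINC-named RNAs, and 2 or more matches in 0.222% of all windows and in 5 of the LINC windows (1.28%). Of the 15 tested RNAs with AP-1 letters, LINC00460 alone was called between K57N and WT cells, beside 2.19% of all tested LINC-named RNAs called higher and 1.09% lower. ETS letters were in 10.3% of all windows and 7.42% of LINC windows, CRE in 1.85% and 1.28%, EGR1 in 0.795% and 1.28%, and the CArG box in 1.29% and 1.79%. LINC00460 rose by 2.67 between K57N and WT cells, while CYTOR, at -0.17 on the log2 scale (SE 0.17; limma adjusted p = 0.838), was not called. PRECSIT (LINC00346), whose window also holds 2 AP-1 matches, gave 0.62 (SE 0.32; 0.499). None of the 5 motifs was in the windows of LINC00659, LINC00261, LINC00673, LINC00910 or LINC00941. The table held no window for LINC00858, LINC00624, LINC00649 and LINC00520.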

How the data were processed

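RNA from 3 HEK293 lines was hybridized to 9 Agilent SurePrint G3 8x60K v2 arrays with 1 dye, 3 per line. The authors deposited the scanner output of each array, in which the processed signal is an intensity after background subtraction by Agilent Feature Extraction 10.10.1.1, unscaled between arrays. The values of a deposited log2 table differed from the log2 processed signals by a single constant on each array (within 0.02 for 100% of probes). Its column medians ran from -3.85 to -3.41, and what it was centred on is unknown. The methods name neither the normalization nor the p adjustment.

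Control spots (4259 of 62975) and outlier spots were left out, spots of a probe were averaged, and log2 signals were set against each array's 75th percentile. The fit dropped 1 member value, of LINC00998 on F53S replicate 1. Signals measure only relative abundance, and array number limits precision. Probes well above background on all 3 arrays of a line were tested (25404 probes, of which 353 LINC), with limma 3.58.1 in R 4.3.3 (data.table version 1.17.8), 1 mean per line, and Benjamini-Hochberg adjustment over all of them. The probe with the highest mean represents an RNA. Python 3.11.15, pandas 2.3.3 and matplotlib 3.10.9 made tables and plots. Symbols were matched to RefSeq for 1086 of 1095 LINC probes, 766 by accession. The older annotation on slide 1 files gives 228 of them a LINC name and the newer one 1075. Positions are the array's, on hg19. Neighbor distances run between probe centres.

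Named are RNAs called in any comparison or only with the slide term, those above background in 1 line alone, the 8 with the widest probe range, the list of 23, nearest genes and MAP2K1. Members and lists were chosen with earlier results of these data known. Arrays of the same replicate number correlated after line means were removed (r from 0.35 to 0.88). Within slide 2, r was 0.05, 0.22 and 0.04. The fit was tested on simulated arrays: of 200 genes among 19208 that were moved by 2 (log2) in K57N cells, 93.5% were called without a slide difference. With one, 60% were called without a slide term and 96% with it. Alternatives were normexp with an offset of 50, quantile normalization, other filters, the mean of probes, fits of 2 lines, replicate and slide blocks, slide 2 alone, the methods' t-test, the deposited values, other detection rules and leaving out each array.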

Additional observations from a re-analysis of the deposited data

How the results depend on the processing

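Depth of signal limits the dim RNAs: 293 of the 476 were not tested, and slide 1 was dimmer. Counts called higher and lower between K57N and WT cells (4 and 2) became 2 and 1 with probes above background on all 9 arrays, 2 and 0 by the methods' t-test with adjustment, 3 and 0 with normexp and 3 and 0 without the filter. They were 6 and 1 with the mean of probes and 4 and 1 with fits of 2 lines. Between K57N and F53S cells (3 and 1) they became 6 and 4 with the replicate block, 6 and 4 with the slide block, 6 and 4 by the methods' t-test without adjustment, 0 and 0 with it, 1 and 0 with normexp, 1 and 0 with probes on all 9 arrays, 5 higher on slide 2 alone, 2 lower with quantile normalization, 0 lower without the filter, 0 lower with fits of 2 lines, and 3 lower with the slide block and no filter, a setting chosen after seeing the data. Over all genes tested (19208, but 38551 without the filter and 17077 with probes on all 9 arrays), calls between K57N and WT cells were 293 higher and 141 lower, 486 and 360 with the replicate block, 495 and 379 with the slide block, 144 and 43 with normexp, 141 and 23 without the filter, 156 and 103 with probes on all 9 arrays, 474 and 254 on slide 2, 158 to 344 and 48 to 184 on leaving out each array, and 82 and 26 by the adjusted t-test. The replicate block gave 5 and 3 LINC-named RNAs between K57N and WT cells and 0 between F53S and WT cells. Leaving out each array gave 3 to 4 higher and 0 to 2 lower between K57N and WT cells, 2 to 3 and 0 to 1 between K57N and F53S cells, and 0 between F53S and WT cells. The adjusted t-test ended the K57N against WT calls of LINC00261 (0.0819), LINC00673 (0.135), LINC00858 (0.133) and LINC00910 (0.0874) and all 4 against F53S cells, LINC00659 (0.0699), LINC00460 (0.0863), LINC00261 (0.118) and LINC00950 (0.123). LINC00261 is the call that normexp changed most, from a fitted log2 value of 3.93 to 1.02 (limma adjusted p = 0.348). The cause was not tested.

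RNAs detected in WT, F53S and K57N cells (166, 167 and 170) were 267, 269 and 269 by the scanner's test for a positive and significant signal, 80, 80 and 90 when every probe of the RNA had to be detected, and 170 to 198, 170 to 198 and 173 to 189 on leaving out each array. Probes shared a sign in 44 of 65 RNAs, in 36 to 50 on leaving out each array, and in 114 of 260 without the filter, with the slide block too. Of 669 single values over 31 results, 555 kept direction and call, 57 lost a call, 39 gained one and 18 changed sign with no call in either setting. The sign changes were LINC00324 (0.024 with quantile normalization, 0.083 on slide 2), LINC00338 (0.002) and LINC00467 (-0.068) with the mean of probes, and LINC00493 (0.034 on slide 2). On leaving out arrays, log2 fold changes ran from -0.41 to 0.45 for LINC00324, -0.263 to 0.081 for LINC00338, -0.10 to 0.18 for LINC00467, -0.092 to 0.001 for LINC00493, -0.16 to 0.006 for LINC00657, -0.035 to 0.539 for LINC00941 and -0.37 to 0.29 for LINC00963.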

Other observations

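LINC00473 had 2 probes, neither of which was tested. The first read -6.07, -7.78 and -5.05 in WT cells, -5.98, -5.80 and -6.92 in F53S cells, and -4.66, -2.93 and -3.08 in K57N cells, where it was above background on both slide 2 arrays. The second read -0.21 on K57N replicate 2 alone and between -7.54 and -5.82 on the other 8 arrays.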
